A study of Mus musculus with 8 samples.

Results

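The subunits of the transcription factor NF-kB and a set of its feedback and target genes were read in mouse aortic smooth muscle cells given a mimetic of moR-21 or a scrambled control. The genes were chosen by name as all probes on the array whose gene symbol was Nfkb1, Nfkb2, Rela, Relb, Nfkbia, Tnfaip3, Sod2, Icam1, Vcam1 or Birc3. These 10 genes, each with a single probe, were among 18138 gene symbols on the array, and 9 of them were among the 8727 symbols with a detected probe. After the moR-21 mimetic, Nfkbia and Sod2 fell, by 1.48-fold and 1.45-fold, while no probe of the 4 subunit genes passed the test in either direction.

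The moR-21 RNA is a microRNA-offset RNA, a short RNA made from the sequence next to miR-21 in the same primary transcript, and the study asked which genes change when it is supplied in excess. Expression BeadChip arrays were made from 3 samples transfected with the scrambled control and 3 samples transfected with the moR-21 mimetic, both with RNAiMAX at a final concentration of 5 nM, and RNA was isolated after 48 h. Repeat arrays, A and B, existed for control sample 1 and for moR-21 sample 3, and their mean was used, which made 6 samples from 8 arrays. All samples were primary cells grown out of pieces of several mouse aortas and kept in medium with charcoal-treated serum, no untransfected sample was analysed here, and no strain, sex or age of the mice was given in the labels. No label said whether the samples of a treatment came from separate cultures, so the p-values measure only the spread between these samples, which may be technical.

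The hairpin that the offset RNA overlaps is shown first because the treatment was named for it. It is the RefSeq hairpin of Mir21a, at chr11:86584067-86584158 on the minus strand of GRCm38.p6, with the 17 bases before the mature miR-21a-5p in capitals. Read against the sponge sites in the paper, moR-21 starts just before the first base of this hairpin, so the capitals are not its full sequence. The sequence of the mimetic itself was not used here.
Mir21a: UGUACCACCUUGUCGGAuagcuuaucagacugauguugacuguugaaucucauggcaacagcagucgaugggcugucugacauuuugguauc

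NF-kB is a family of dimeric transcription factors that IkB proteins hold in the cytoplasm until the IKK complex marks the IkB proteins for degradation. Freed dimers enter the nucleus and drive genes of inflammation, cell adhesion and cell survival, and also the genes of their own inhibitors, which end the response. In vascular smooth muscle the pathway is known for its response to inflammatory cytokines and for the induction of leukocyte adhesion molecules.

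The array signals were comparable between treatments, with median intensities between 102 and 109 and between 10285 and 10512 of 25697 probes detected on each array. A probe was taken as detected at a detection p-value under 0.01, and 11651 probes detected on at least 1 array were tested with limma on quantile normalized log2 intensities. The threshold for a call was a fold change over 1.3, which is 0.38 on the log2 scale, together with a Benjamini-Hochberg adjusted p under 0.002. Every difference below is moR-21 minus control on the log2 scale, and every SD is over 3 samples. Of the smooth muscle markers, 5 of 7 on the array were detected, with Acta2 among them and Myh11 and Cnn1 not detected. Of those detected, Tagln (mean 6.8) and Des (mean 7.1) were dim. One label field gave the cells as AoECs and the source and cell type labels gave AoSMCs, and of 8 endothelial markers Vwf alone was detected, dimly, while Pecam1, Cdh5, Kdr, Tek, Emcn, Tie1 and Esam were not.

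The promoters are shown before the values because Nfkbia and Sod2, the members that fell, and Tnfaip3, the other feedback inhibitor, each hold a match to the kB consensus close to their start. The windows were the RefSeq ones of GRCm38.p6, 250 bases before to 50 bases after each annotated start, and 7 of the 10 members matched by symbol, while Nfkb1, Relb and Vcam1 had no entry. The 130 bases before the start are printed 5′ to 3′ on the gene's strand, with the matches in capitals.
Nfkbia, chr12:55492648-55492777, minus strand: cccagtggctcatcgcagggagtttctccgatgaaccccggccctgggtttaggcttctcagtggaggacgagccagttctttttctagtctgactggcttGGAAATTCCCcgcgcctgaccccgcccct
Sod2, chr17:13007709-13007838, plus strand: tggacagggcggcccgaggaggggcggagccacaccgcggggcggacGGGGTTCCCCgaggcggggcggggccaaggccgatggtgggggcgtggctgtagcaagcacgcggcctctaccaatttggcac
Tnfaip3, chr10:19015411-19015540, minus strand: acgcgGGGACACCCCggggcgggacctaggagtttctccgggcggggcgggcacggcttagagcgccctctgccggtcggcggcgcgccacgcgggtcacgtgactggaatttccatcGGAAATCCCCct

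The motif searched was the decameric kB consensus, on both strands, with overlapping matches counted separately. Nfkbia held 1 match, from −29 to −20 relative to the start, and Sod2 held 1 match, from −83 to −74. Tnfaip3 held 2 matches in 1 of its 2 windows, from −125 to −116 and from −12 to −3. In Nfkb2 each of the 3 windows held a match, but the last window overlaps the one before it, and its only match is a site they share. A pair of matches in the window nearest the gene's start overlapped, at −39 to −30 and −38 to −29. No match lay in the windows of Rela, Icam1 and Birc3. Of all 32851 windows 2779 held a match (8.46%), and of the 5611 detected genes with a window 701 did (12.5%). A match says only that these letters are present, and matches were found in members that fell and in members that did not pass the test.

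**Figure D1:**
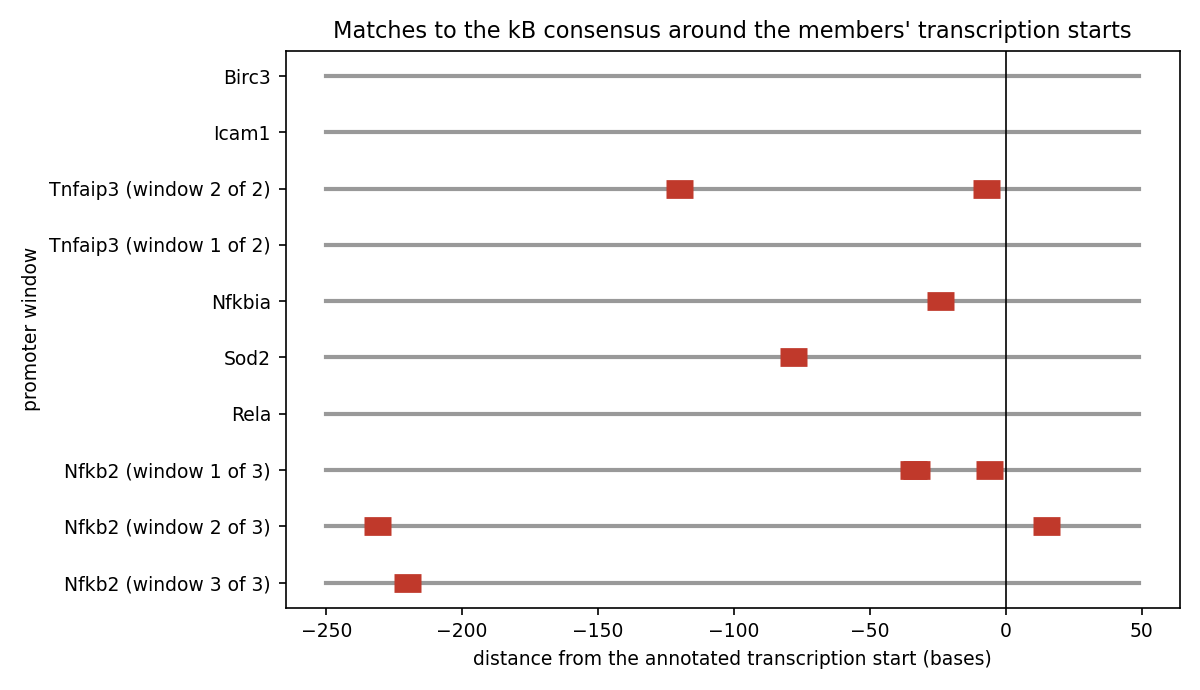
Matches to the decameric kB consensus in the RefSeq promoter windows of 7 members. The horizontal axis is the distance from the annotated transcription start in bases, each grey line is 1 window from 250 bases before to 50 bases after the start, and each red block is a match on either strand. Nfkbia and Sod2 hold 1 match each, and the windows of Rela, Icam1 and Birc3 hold none.

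The subunits are taken first. Nfkb1 and Nfkb2 encode precursors that are processed into DNA-binding subunits without a transactivation domain of their own. The Nfkb1 probe (ILMN_2592476, gene at chr3:135584655-135691969) read 8.66, 8.63 and 8.59 in the control samples and 8.70, 8.70 and 8.65 in the moR-21 samples. The groups overlapped, since moR-21 sample 3 lay under control sample 1. The difference was 0.06 (SE 0.0454, 95% confidence interval −0.04 to 0.16, limma adjusted p = 0.363). The Nfkb2 probe (ILMN_2642239, chr19:46300994-46312400) read 7.06, 7.15 and 7.07 in the control samples and 7.03, 7.02 and 7.13 in the moR-21 samples. Here too the groups overlapped, and the difference was −0.03 (SE 0.0499, interval −0.14 to 0.07, limma adjusted p = 0.662).

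Rela encodes the transactivating partner of the canonical dimer. Its probe (ILMN_2740859, chr19:5637442-5648134) read 10.69, 10.72 and 10.54 in the control samples and 10.73, 10.66 and 10.78 in the moR-21 samples. Control sample 3 was the lowest of all 6, and the other control samples lay among the moR-21 samples. The difference was 0.07 (SE 0.0565, interval −0.05 to 0.19, limma adjusted p = 0.367), and the pair of arrays of moR-21 sample 3 alone differed by 0.21. In the reported setting all 3 intervals, for Nfkb1, Nfkb2 and Rela, lay inside the fold-change cutoff of 0.38 in either direction. The Nfkb2 probe was dim (control mean 7.09), and without background correction differences of dim probes are understated. Its interval therefore does not bound the change. With normexp background correction the Nfkb2 difference was −0.09 (limma adjusted p = 0.562), also not called.

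Relb, the partner of the processed Nfkb2 product in the non-canonical pathway, differed most among the subunits. The Relb probe (ILMN_1246841, chr7:19606217-19629438) read 7.61, 7.69 and 7.58 in the control samples and 7.41, 7.54 and 7.45 in the moR-21 samples. All 3 moR-21 samples lay below all 3 control samples. The means were 7.63 ± 0.0561 (SD) and 7.47 ± 0.0713, a difference of −0.16 (SE 0.0516, interval −0.27 to −0.05) or 1.12-fold, and the limma adjusted p of 0.0253 missed the threshold. With normexp background correction, which widens differences of dim probes, the difference was −0.29 with a limma adjusted p of 0.0394, also not called. Rel, the remaining subunit gene, was on the array and was not detected.

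Of the feedback inhibitors Nfkbia was called and Tnfaip3 was not. Nfkbia encodes IkB alpha, the inhibitor that is degraded on activation and then made anew from its own NF-kB-driven gene. The Nfkbia probe (ILMN_3001914, chr12:55489409-55492647) read 9.77, 9.86 and 9.70 in the control samples and 9.19, 9.30 and 9.16 in the moR-21 samples. Every moR-21 sample lay below every control sample, and the gap between the groups exceeded the range within either. The means were 9.78 ± 0.0777 (SD) and 9.21 ± 0.0730, a difference of −0.56 (SE 0.0545, interval −0.68 to −0.44, limma adjusted p = 2.94e-06). On the linear scale the Nfkbia signal fell by 32.2% (interval −37.5% to −26.5%), and 1.64% of all tested probes fell by more.

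Tnfaip3 encodes a ubiquitin-editing enzyme that shuts off signalling above the IKK complex. The Tnfaip3 probe (ILMN_1252202, chr10:19000910-19015410) read 7.09, 7.17 and 7.13 in the control samples and 6.96, 6.99 and 7.17 in the moR-21 samples. The first and second moR-21 samples lay below all control samples, while the third lay level with the highest of them. The difference was −0.09 (SE 0.0569, interval −0.21 to 0.03, limma adjusted p = 0.250), and the arrays of moR-21 sample 3 differed between themselves by 0.23, more than the treatments did. Without moR-21 sample 3 the difference was −0.16 (limma adjusted p = 0.0420), without moR-21 sample 1 it was −0.05 (limma adjusted p = 0.572), and with normexp it was −0.25 (limma adjusted p = 0.195), none of them called. In the reported setting the interval lay inside the fold-change cutoff in both directions, and whether Nfkbia and Tnfaip3 differ in their response was not tested.

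Among the target genes, Sod2 encodes the manganese superoxide dismutase of mitochondria. The Sod2 probe (ILMN_2650280, chr17:13007839-13018119) read 11.37, 11.47 and 11.48 in the control samples and 10.81, 10.92 and 10.99 in the moR-21 samples. As with Nfkbia, all moR-21 samples lay below all control samples with a wide gap. The means were 11.44 ± 0.0599 (SD) and 10.91 ± 0.0933, a difference of −0.53 (SE 0.0553, interval −0.65 to −0.42, limma adjusted p = 5.49e-06). The Sod2 signal fell by 30.9% (interval −36.4% to −25.0%), and 1.80% of tested probes fell by more.

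Icam1 and Vcam1 encode adhesion molecules of the immunoglobulin family that bind leukocyte integrins. The Vcam1 probe (ILMN_2778655, chr3:116110020-116129688) read 11.28, 11.14 and 11.03 in the control samples and 11.23, 10.98 and 10.96 in the moR-21 samples. Its groups overlapped, and with SDs of 0.126 and 0.153 it had the widest spread within each treatment among the 10 members. The difference was −0.10 (SE 0.0755, interval −0.26 to 0.07, limma adjusted p = 0.377). It rested on the samples included, from −0.03 without control sample 1 (limma adjusted p = 0.830) to −0.18 without moR-21 sample 1 (limma adjusted p = 0.0572).

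The Icam1 probe (ILMN_2896601, chr9:21015940-21028814) read 6.87, 6.75 and 6.91 in the control samples and 6.70, 6.75 and 6.71 in the moR-21 samples. The moR-21 samples lay below the control samples, but moR-21 sample 2 and control sample 2 were level at this rounding, and the probe was near background, detected on 3 of 4 control arrays and on 0 of 4 moR-21 arrays. Control sample 2 was itself not detected. The fit gave −0.12 (limma adjusted p = 0.0815) and, with normexp, −0.44 (limma adjusted p = 0.0404), and it made no call in either. Because the probe entered the test through control arrays alone and the moR-21 arrays were at background, these values neither measure nor bound a change.

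Birc3 encodes an inhibitor of apoptosis protein that acts as a ubiquitin ligase in the receptor complexes of the pathway. Its probe (ILMN_1247999, chr9:7847468-7873205) read 6.58, 6.56 and 6.59 in the control samples and 6.56, 6.54 and 6.64 in the moR-21 samples. All of these lay under the lowest detected signals, which were between 6.82 and 6.84, and the probe was detected on 0 of 8 arrays. No fold change is therefore given. Its relative Birc2 was detected with 3 probes, of which the brightest differed by 0.16 (limma adjusted p = 0.0528) and the others by −0.09 and −0.03.

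**Figure D2:**
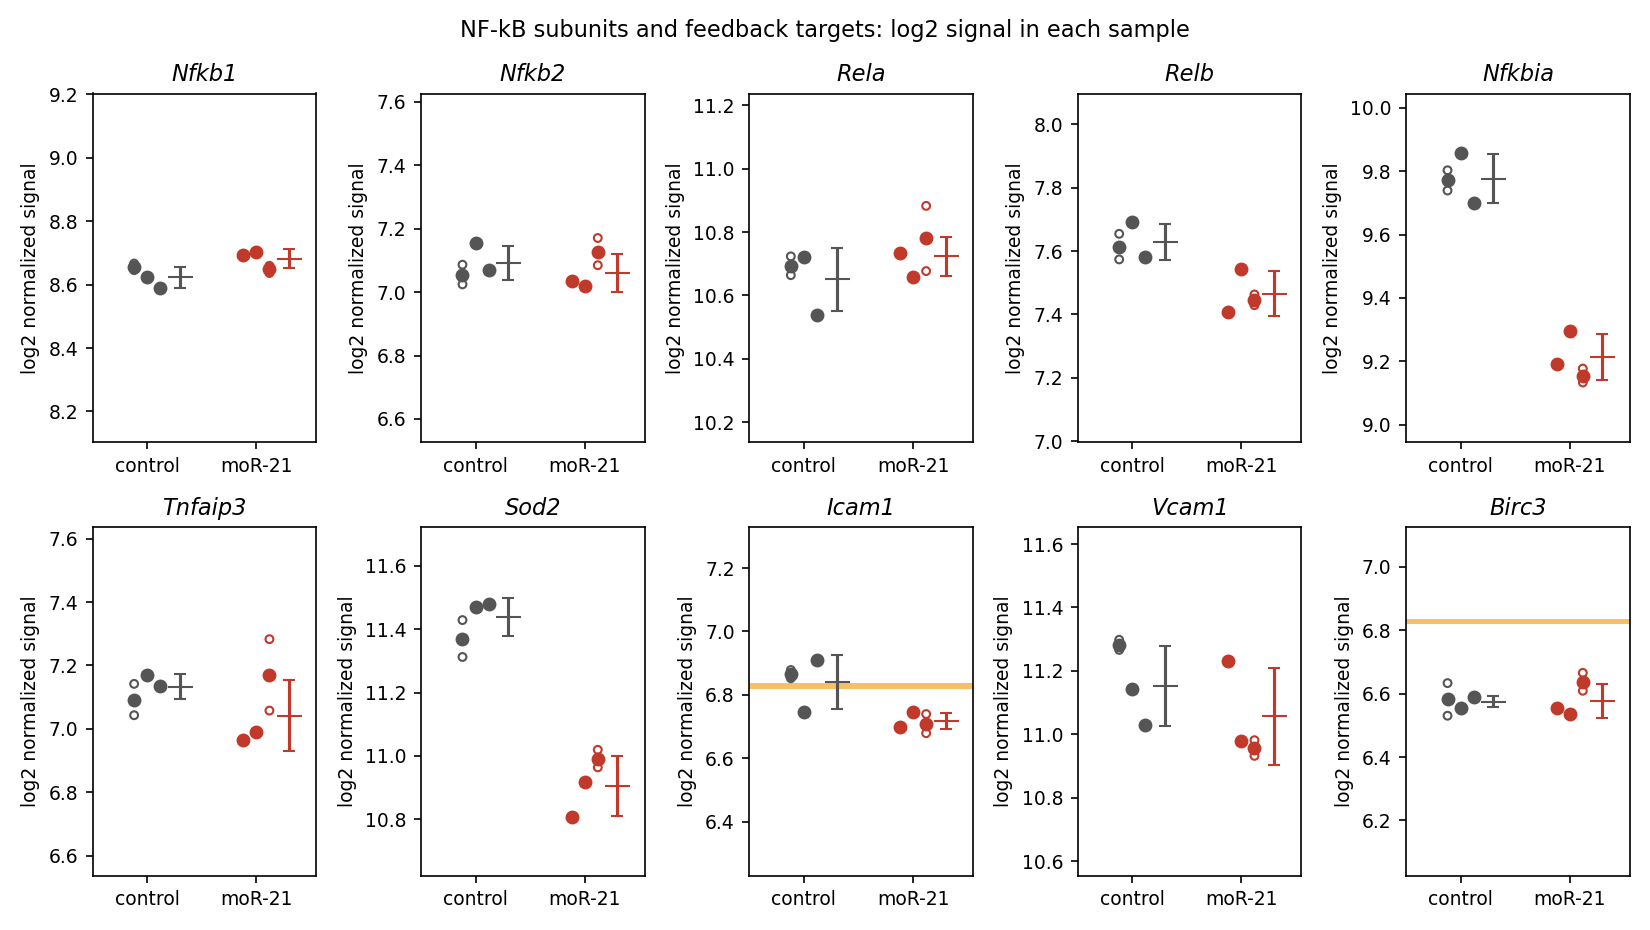
Quantile normalized log2 signal of the 10 members in each sample, with control samples in grey and moR-21 samples in red. Filled points are samples, open points are the pair of arrays behind control sample 1 and moR-21 sample 3, bars are the mean ± SD over 3 samples, each vertical axis spans the same log2 range, and the orange line marks the lowest detected signal. The groups stand well apart in Nfkbia and Sod2, all Birc3 points lie under the orange line, and the Icam1 points lie on both sides of it, with every moR-21 sample under it.

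As a set, 2 of the 9 tested members were called lower and 0 higher. Over all tested probes 3.85% were called lower and 3.12% higher. The members were chosen with earlier results of these data known, so this comparison does not test them as a set. In Relb, Nfkbia and Sod2, which were detected on all 8 arrays, all moR-21 samples lay below all control samples, and in 0 members they all lay above. The same held for 21.2% of all tested probes downward and 23.7% upward. The Icam1 samples were also ordered this way, but it is not counted here, since it passed the detection filter through control arrays alone and its nearest samples were not detected. For each of the 3 counted genes the exact two-sided permutation test over samples gave p = 0.1, the smallest that 3 against 3 samples can give. With Icam1 left aside, Nfkb2, Relb, Nfkbia, Tnfaip3, Sod2 and Vcam1 had a lower mean after the moR-21 mimetic, and Nfkb1 and Rela a higher one. Over all tested genes, at their brightest probe, 48.2% had a lower mean. In bulk RNA, fewer cells that express a gene and less of its RNA in each cell cannot be told apart.

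**Figure D3:**
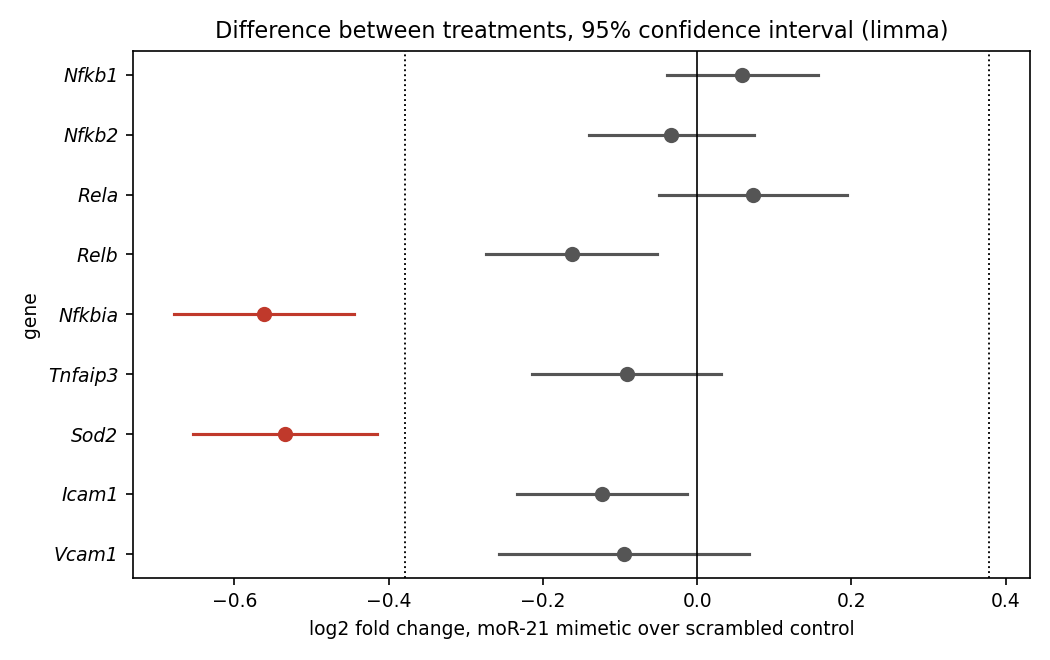
Log2 fold change of the 9 tested members, moR-21 mimetic over scrambled control, with limma 95% confidence intervals. Dotted lines mark the fold-change cutoff of 1.3 in each direction and red marks the called genes. In the reported setting the intervals of Nfkbia and Sod2 lie wholly beyond the cutoff, and those of Nfkb1, Nfkb2, Rela, Relb, Tnfaip3 and Vcam1 lie wholly within it. Nfkb2, Relb and Tnfaip3 were dim, and their differences are understated without background correction, so their intervals do not bound the change. The Icam1 interval is drawn but bounds no change, since Icam1 was measured above background in control samples only.

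Nfkbia and Sod2 were called lower under each alternative that kept the cutoffs. Over the 16 alternatives tried for each, Nfkbia ranged from −0.63 to −0.52 with limma adjusted p between 3.06e-08 and 5.86e-04, and Sod2 from −0.58 to −0.48 with limma adjusted p between 7.16e-08 and 0.00112. In the reported setting both lay short of a fold change of 1.5. Relb ranged from −0.29 to −0.13 and Icam1 from −0.44 to −0.09, and neither was called under any alternative that kept the cutoffs. The Icam1 values do not measure a change, since its moR-21 arrays were at background.

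**Figure D4:**
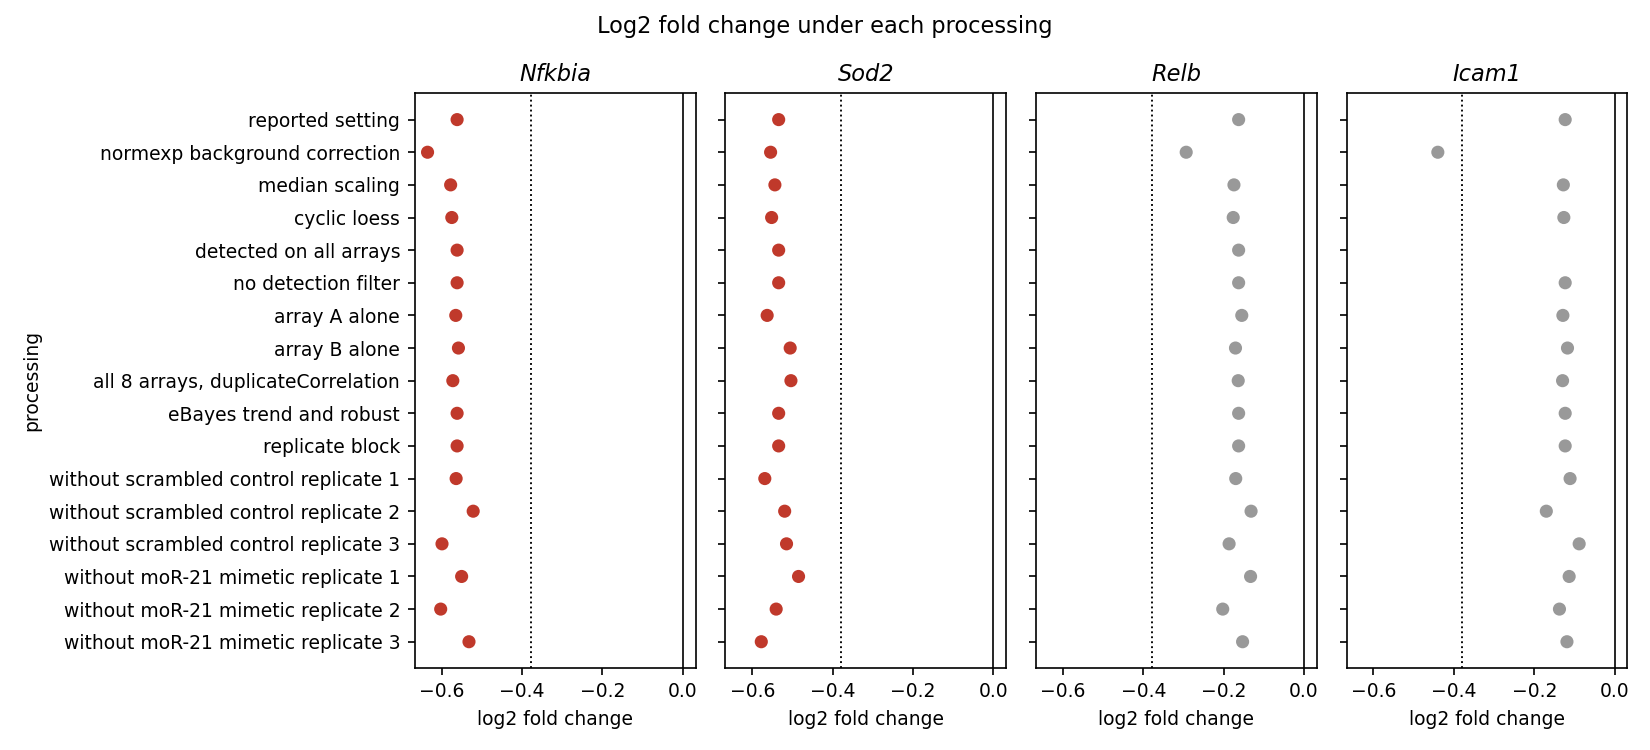
Log2 fold change of Nfkbia, Sod2, Relb and Icam1 under the reported setting and each alternative processing, with red for called values and grey for values not called. The dotted line is the fold-change cutoff of 1.3. Nfkbia lies between −0.63 and −0.52 throughout, and normexp background correction gives the lowest values of Relb (−0.29) and Icam1 (−0.44). Icam1 has no point where detection on all arrays was required.

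The summed signals of the mesothelial, fibroblast and smooth muscle marker lists differed between the treatments without overlap. Those of the endothelial and leukocyte lists overlapped. The summed linear signal of the detected mesothelial markers, 2 of 5 on the array, was between 771 and 780 in the control samples and between 402 and 416 in the moR-21 samples. Within that sum Upk3b, the brighter of the pair, was called lower (−1.24), while Krt19 (−0.13) was not called. Msln, Krt8 and Krt18 were not detected. The summed signal of all 6 fibroblast markers was between 18049 and 18631 in the control samples and between 15460 and 16297 in the moR-21 samples. Within that list Col1a2 (−0.47) and Lum (−0.56) were called lower and Thy1 (0.53) was called higher. The sum of the 5 detected smooth muscle markers was between 10380 and 10758 in the control samples and between 13152 and 14025 in the moR-21 samples. Acta2 (0.40), the brightest in that sum, was called higher, while Des (−0.38), Smtn (−0.05), Tpm2 (0.04) and Tagln (0.20) were not called, and the list's median was 0.04. Tagln lay close to the lowest detected signals. The endothelial sum, from Vwf alone, was between 117 and 120 and between 118 and 127. The leukocyte sum, from 4 of 11 markers, was between 1987 and 2045 and between 1963 and 2048, with Ptprc, Adgre1, Itgam, Cd68, Cd53, Fcer1g and Tyrobp not detected. Of the detected leukocyte markers, Lyz2 (0.48) and Lyz1, listed on the array as Lyz (0.58), were called higher, and Cd14 (−0.27) and Csf1r (−0.01) were not called. The part of these marker changes in the Nfkbia and Sod2 values was not tested.

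The rest of the pathway was read from 9 lists that, without the members, named 139 genes. The array carried 130 of these and 98 were tested, each at its brightest detected probe. Of these 98, 9 were called lower and 7 higher, against 4.38% of all tested genes called lower and 3.41% called higher. The lists were chosen with earlier results of these data known, so this comparison does not test the pathway. A lower mean was seen in 61 of them (62.2%) and in 4208 of 8727 genes overall (48.2%), and the median difference was −0.03 against 0.01 over all genes.

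The IkB family holds the inhibitors related to Nfkbia. Of its 5 tested genes Nfkbiz alone was called, and it fell. Nfkbiz, an atypical nuclear IkB that modifies the activity of bound NF-kB, read 9.90, 10.06 and 9.85 in the control samples and 9.45, 9.54 and 9.46 in the moR-21 samples, without overlap, for a difference of −0.45 (SE 0.0576, limma adjusted p = 3.52e-05). The classical relatives Nfkbib (−0.03) and Nfkbie (0.02), the coactivator Bcl3 (0.00) and Nfkbil1 (−0.00) lay near 0, and Nfkbid was not detected. Nfkbil1 (mean 6.81) read close to the lowest detected signals, and Nfkbib (mean 7.02) and Nfkbie (mean 7.17) were also dim. The values of these genes cannot show a lack of change.

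Of the IKK complex and the kinases above it, 15 of 16 genes were tested, 0 were called, and 14 had a lower mean, with a median of −0.10 and a range from −0.23 to 0.05. The catalytic subunit gene Chuk differed by 0.05 (limma adjusted p = 0.502) and its partner Ikbkb by −0.19 (limma adjusted p = 0.00642). The scaffold subunit gene Ikbkg differed by −0.03 (limma adjusted p = 0.712), with a second probe at −0.16 not called. The lowest of the list was Tab2, an adaptor of the kinase upstream of IKK, at −0.23 (limma adjusted p = 0.00227), chosen for mention after its value was seen. All of these lay short of the fold-change cutoff.

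Receptors and adaptors gave 18 tested genes, 13 with a lower mean and 0 called, with a median of −0.02. At their brightest probes, the TNF receptor genes Tnfrsf1a (−0.02) and Tnfrsf1b (−0.00) were not called. Nor were the IL-1 receptor gene Il1r1 (0.08) and Tlr4, the receptor for bacterial lipopolysaccharide (0.03). All had limma adjusted p of 0.220 or more. The other Tnfrsf1a probes differed by −0.15 and −0.10 and were not called. Il1r1 (mean 6.82) and Tnfrsf1b (mean 6.85) lay close to the lowest detected signals, and Tlr4 (mean 7.18) was also dim. An absence of change cannot be read from these genes. Traf6, the ubiquitin ligase adaptor of the IL-1 and Toll-like receptors, singled out after its value was seen, differed by −0.35 at its brightest probe (limma adjusted p = 1.11e-04), which was not called for its size, while its other detected probes differed by −0.01 and −0.09.

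Ligand genes were mostly below detection in these cells. Of 10 on the array 3 were detected, and Tnf, Il1a, Il1b, Lta, Ltb, Tnfsf11 and Tnfsf12 were not. Il33, a cytokine of the IL-1 family that is stored in the nucleus, read 8.42, 8.30 and 8.27 in the control samples and 9.32, 9.45 and 9.26 in the moR-21 samples, and it rose by 1.02 (SE 0.0582, limma adjusted p = 1.67e-08). Il18 (−0.19) and Tnfsf13b (−0.31) were not called.

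The negative regulators, a list that also holds Nfkbib, Nfkbie and Bcl3, moved in both directions, with 2 of 12 tested genes called lower and 2 called higher. Cyld, a deubiquitinase that dampens signalling to IKK, read 8.93, 8.77 and 8.84 in the control samples and 8.25, 8.26 and 8.32 in the moR-21 samples, and it fell by 0.57 (SE 0.0512, limma adjusted p = 1.44e-06). This was close to the difference of Nfkbia, and here too the groups did not overlap. Tollip, an adaptor that restrains Toll-like receptor signalling, fell by 0.41 (limma adjusted p = 6.17e-05), with a second probe at −0.21 not called. Pdlim2, which promotes the breakdown of nuclear Rela protein, rose by 0.48 (limma adjusted p = 8.60e-05), and its other probes differed by 0.49, 0.39 and 0.05, the first pair called. Commd1, which acts on Rela protein in a similar way, rose by 0.39 (limma adjusted p = 4.95e-04), but a second probe differed by 0.05 and was not called.

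Target genes of NF-kB outside the members were called in both directions. Of 33 tested, 16 had a lower and 17 a higher mean, 4 were called lower and 2 higher, and the median was 0.02. Besides Nfkbiz, which also stands in this list, the stress-response gene Gadd45b fell by 0.43 (limma adjusted p = 3.90e-05), the AP-1 subunit gene Junb by 0.39 (limma adjusted p = 1.85e-04) and the transglutaminase gene Tgm2 by 0.42 (limma adjusted p = 2.03e-04). The matrix metalloproteinase gene Mmp3 rose by 0.52 (limma adjusted p = 1.94e-05), with other probes at 0.56, called, and 0.33, not called. Cd44, the gene of a hyaluronan receptor, rose by 0.41 (limma adjusted p = 5.71e-05).

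Chemokine genes were higher more often than lower, in 5 of 8, with a median of 0.21 and a range from −0.13 to 0.40, but Cxcl12 alone was called. Its probes disagreed, since the brightest rose by 0.40 (limma adjusted p = 5.38e-05) while the others differed by −0.36, not called, and −0.39, called lower. Cxcl1, named after its value was seen, rose by 0.37 without overlap (limma adjusted p = 9.04e-05), just short of the fold-change cutoff. Acute-phase genes held the largest differences of all 9 lists. Of the 8 tested, Saa3 (−2.16), Hp (−1.85) and the complement gene C3 (−0.64) were called lower and the protease inhibitor gene Serpina3n (0.70) was called higher.

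**Figure D5:**
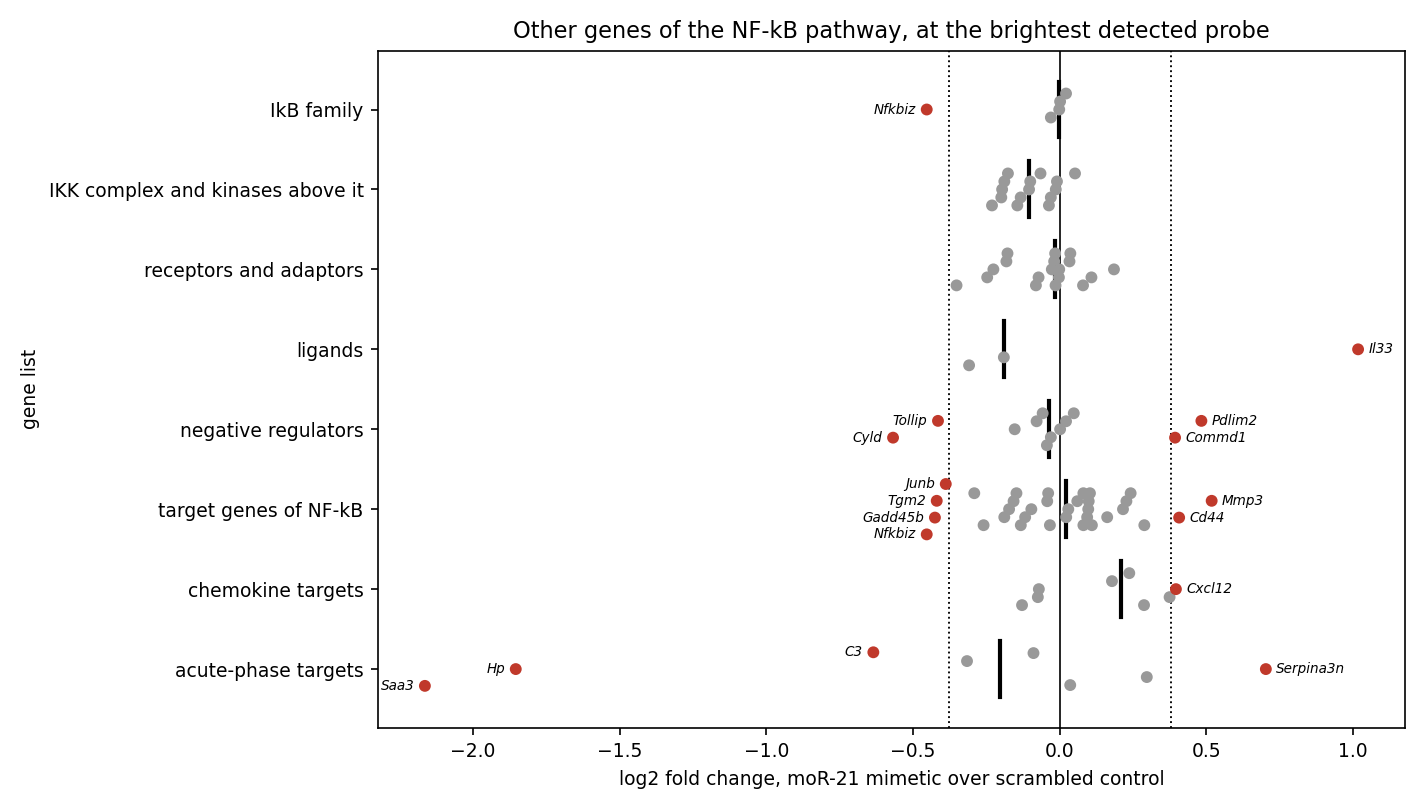
Log2 fold change, moR-21 mimetic over scrambled control, of the tested pathway genes outside the members, each at its brightest detected probe and with 1 row for each gene list. Red points with names are called genes, black bars are list medians and dotted lines mark the fold-change cutoff of 1.3. The kinase list lies mostly to the left of 0 with 0 called genes, and Saa3 at −2.16 and Il33 at 1.02 are the outermost points. Nfkbiz appears in 2 lists.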

How the data were processed

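RNA of 6 samples was measured on 8 Illumina arrays. The authors deposited a non-normalized intensity and a detection p-value for each probe and array, and 0 columns were left unassigned to a sample. Their methods name BeadStudio quantile normalization, the lumi and limma packages, and 2 array designs, MouseRef-8 v2.0 and MouseWG-6 v2.0. Here the 8 arrays were brought to common quantiles without background correction, log2 values were taken, repeat arrays were averaged, and limma 3.58.1 in R 4.3.3 (lmFit, eBayes) compared the treatments over 11651 probes detected at a p-value under 0.01 on at least 1 array, with Benjamini-Hochberg adjustment and the methods' cutoffs (fold change over 1.3, adjusted p under 0.002). The code was tested on simulated data. Precision is limited by the 3 samples per treatment. Quantile normalization assumes that most genes do not move. Without background correction, differences of dim probes are understated.

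All members were named, and of the pathway lists every called gene and 8 genes chosen by role. Any other pathway gene was named after its value was seen. The members and lists were chosen with earlier results of these data known. Samples of the 2 treatments share replicate numbers. The correlations of their deviations were 0.187, 0.0441 and 0.0597, which do not settle whether the numbers mark pairs. The reported fit left the samples unpaired. Alternatives were normexp (offset 16), median scaling, cyclic loess, stricter or no detection filters, array A or B alone, duplicateCorrelation, eBayes with trend and robust, a replicate block, each sample left out, and other cutoffs. Gene positions and sequences are from RefSeq (GRCm38.p6), searched with Python 3.11.15.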

Additional observations from a re-analysis of the deposited data

How the results depend on the processing

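None of the 9 tested members changed direction or its side of the threshold under any alternative that kept the cutoffs (16 each, 15 for Icam1, which could not be fitted where detection on all arrays was required). With a fold change over 1.5, 0 members were called lower, 174 probes were lower and 86 higher, and 3 pathway genes were called lower and 2 higher, since the differences of Nfkbia and Sod2 lie between the cutoffs. With normexp 4 pathway genes were called higher instead of 7, and with the mean of all detected probes of a gene also 4, where genes with discordant probes are averaged. For the normexp count the cause was not tested. Leaving out each sample in turn gave 2 members called lower and 0 higher each time, with Nfkbia from −0.60 to −0.52 and Sod2 from −0.58 to −0.48, and 7 to 10 pathway genes called lower and 5 to 8 higher. With a replicate block Nfkbia was −0.56 (limma adjusted p = 3.06e-08) and Sod2 −0.53 (limma adjusted p = 7.16e-08), and 450 probes were called lower and 365 higher against 448 and 363. Whether the replicate numbers mark pairs was not settled. Samples that share a number had correlations of 0.187, 0.0441 and 0.0597, and control sample 3 was only slightly closer to moR-21 sample 2 (0.0693). Birc3 was under background, so no fold change of it is given. Signals near background limit Icam1 and Birc3, and single probes limit every member.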
